A study of Mus musculus with 8 samples.

Results

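The circadian clock genes described here are Clock, Npas2, Per1, Per2, Per3, Cry1, Ciart, Nr1d1, Nr1d2 and Dbp, 10 of the genes that keep daily time in mouse cells or carry its signal. They were found as all probe sets whose single gene symbol in the array annotation was one of these names, which gave 23 of the 45101 probe sets of the array. Of the 10 genes, 9 had a probe set bright enough to be tested among 11232 genes, and Npas2 did not. The mice were C57BL/6J males bought at 6 weeks of age, and total RNA of their epididymal fat was put on 1 array for each of 8 mice. The groups of 2 mice were a high-fat diet (HFD, 30% of calories from fat) with telmisartan, the same diet with candesartan, the same diet with no drug, and a chow with 10% of calories from fat. Diets lasted 24 weeks, and the drugs were then given in the drinking water at about 3 mg/kg/day for 5 weeks. The labels name no altered gene and no pooling of mice. The hour of the day at which the fat was taken is not given in the sources used here, and each mouse gives 1 time point.

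The clock is a loop of transcription. The proteins of Clock, or of its relative Npas2, pair with the protein of Arntl (BMAL1). The pair binds E-boxes in DNA and switches on genes, among them the Per, Cry and Nr1d genes, Ciart and Dbp. PER and CRY proteins and the product of Ciart (CHRONO) then repress that pair, the NR1D (REV-ERB) receptors repress Arntl, and DBP activates genes with a D-box. In mouse fat, as in liver, most of these transcripts rise and fall once a day at different hours, so the level of each in 1 sample depends on the hour of collection as well as on the size of its daily swing.

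Signals are linear array intensities, scaled here so that the trimmed mean of all probe sets is the same on each array, and they have no absolute unit. The trimmed mean of the deposited signal lay between 178 and 265 on the 8 arrays. A gene was tested where its brightest probe set was in the brighter 50% of probe sets. It was called where limma's p, adjusted over all genes tested by the Benjamini-Hochberg method, was under 0.05, and all fold changes are log2. Adipocyte markers were bright on all arrays: 6 of the 8 genes listed had a probe set, with summed signals of 73041 and 66442 for telmisartan, 67668 and 62769 for candesartan, 62115 and 65836 for HFD and 60966 and 70357 for chow. All 8 macrophage markers were higher in HFD than in chow, 7 of them past the test, with summed signals of 35446 and 48460.4 for telmisartan, 38513 and 44129 for candesartan, 41049 and 42465 for HFD and 17911 and 20330.0 for chow. All 4 endothelial markers were lower in HFD than in chow, 2 of them past the test, with sums of 1407 and 1599 for telmisartan, 1373 and 1545 for candesartan, 1599.8 and 1568 for HFD and 3003 and 2286 for chow. None of 7 epididymis and testis markers was bright enough to be tested (5 had a probe set). All 4 mast cell markers were higher in HFD than in chow, 1 of them past the test, and of the 6 adipocyte markers 2 were higher and 4 were not, 1 of the 6 past the test. Markers of several cell types thus moved with the diet, and their part in the clock gene values was not tested. In whole tissue, fewer cells of a type and less RNA per cell cannot be told apart.

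Promoter windows from 250 bases before to 50 bases after the transcription start are shown for Dbp and for the 4 members with an E-box or D-box, to set the letters the clock proteins read beside the expression values. The sequences are RefSeq's (GRCm38.p6), which held windows for 9 of the 10 genes. Capitals mark the E-box, a palindrome spelled CACGTG, and its variant, spelled CACGTT and read from the other strand as AACGTG. They also mark the D-box in the spelling TTATGTAA, read from the other strand as TTACATAA. Other spellings of the D-box were not searched. Both strands were searched, and no matches of different motifs overlapped in these windows.
Dbp: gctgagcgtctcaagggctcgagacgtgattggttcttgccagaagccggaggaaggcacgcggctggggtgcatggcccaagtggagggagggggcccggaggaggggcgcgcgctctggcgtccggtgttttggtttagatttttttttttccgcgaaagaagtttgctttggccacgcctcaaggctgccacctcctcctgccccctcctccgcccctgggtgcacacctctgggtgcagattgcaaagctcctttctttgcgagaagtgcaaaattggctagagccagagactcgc
Per3: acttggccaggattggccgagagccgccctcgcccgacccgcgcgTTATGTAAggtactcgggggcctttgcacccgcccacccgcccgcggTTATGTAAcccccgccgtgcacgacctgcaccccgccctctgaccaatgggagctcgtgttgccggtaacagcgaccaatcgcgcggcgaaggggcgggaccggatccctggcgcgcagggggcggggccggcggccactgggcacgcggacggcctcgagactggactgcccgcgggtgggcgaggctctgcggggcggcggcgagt
Ciart: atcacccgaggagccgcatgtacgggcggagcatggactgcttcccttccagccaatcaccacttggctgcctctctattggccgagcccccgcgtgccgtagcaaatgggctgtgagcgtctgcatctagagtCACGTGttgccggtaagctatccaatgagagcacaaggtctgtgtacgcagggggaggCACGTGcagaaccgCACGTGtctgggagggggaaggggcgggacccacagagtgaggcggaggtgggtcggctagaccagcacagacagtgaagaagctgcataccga
Cry1: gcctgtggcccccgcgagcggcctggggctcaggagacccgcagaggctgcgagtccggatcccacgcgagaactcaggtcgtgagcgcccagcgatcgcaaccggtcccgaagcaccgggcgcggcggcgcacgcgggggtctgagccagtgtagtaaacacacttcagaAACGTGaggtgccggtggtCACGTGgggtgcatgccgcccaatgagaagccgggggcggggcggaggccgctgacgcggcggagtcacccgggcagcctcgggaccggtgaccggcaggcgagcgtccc
Per1: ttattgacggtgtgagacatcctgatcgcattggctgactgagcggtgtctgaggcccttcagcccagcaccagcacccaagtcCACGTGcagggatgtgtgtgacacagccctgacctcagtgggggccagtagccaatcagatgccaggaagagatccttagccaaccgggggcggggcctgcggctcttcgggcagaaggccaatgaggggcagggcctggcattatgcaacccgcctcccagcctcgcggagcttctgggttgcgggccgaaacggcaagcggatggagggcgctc
The window of Dbp (chr7:45704997-45705296, plus strand) held none of the 3 motifs. That of Per3 (chr4:151044616-151044915, minus strand) held 2 D-boxes, 205 and 158 bases before the start. That of Ciart (chr3:95882179-95882478, minus strand) held 3 E-boxes, the nearest 44 bases before the start. The window of Cry1 (chr10:85185005-85185304, minus strand) held 1 E-box and 1 variant. That of Per1 (chr11:69098699-69098998, plus strand), the first of its 2 listed starts, held 1 E-box. The E-box was thus in 3 of 12 member windows, those of 3 of the 9 genes. The window of Nr1d1, not shown, held 1 variant, and those of Clock, Npas2 and Nr1d2 held none of the motifs. Of 32851 promoter windows of the same length, 7.15% held CACGTG, 4.68% held its variant and 0.938% held the D-box in this spelling. A match describes these letters only, and no match in a window says nothing of sites elsewhere in the gene.

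Dbp, a D-box binding transcription factor that carries clock time to metabolic genes, was lower in all 3 high-fat groups than in chow. The signal was 1427 and 1224 on the telmisartan arrays, 1326 and 1209 on the candesartan arrays, 1276 and 1534 on the HFD arrays and 2099.8 and 2271 on the chow arrays. All 6 high-fat arrays thus lay below both chow arrays, while the telmisartan, candesartan and HFD arrays overlapped each other. The group means were 1326 ± 143 with telmisartan, 1267 ± 82.8 with candesartan, 1405 ± 183 with HFD and 2185 ± 121 with chow (SD, n = 2 each). Against chow, limma's moderated test over all genes called it in HFD, where it fell by 0.64 on the log2 scale (95% CI −0.97 to −0.32, adjusted p 0.0321), which is 35.9% lower. With telmisartan Dbp fell by 0.72 on the log2 scale (95% CI −1.05 to −0.40, adjusted p 0.0190), and with candesartan it fell by 0.79 on the log2 scale (95% CI −1.11 to −0.46, adjusted p 0.0168). The second probe set of Dbp, 1418174_at, had a signal of 752 and 753 on the telmisartan arrays, 691 and 744 on the candesartan arrays, 708 and 855 on the HFD arrays and 1134 and 1278 on the chow arrays, with the same separation from chow. In a fit of all probe sets, with p adjusted over 45037 of them, neither Dbp probe set passed. There 1438211_s_at, the brighter one, had the same estimates as above with an adjusted p of 0.0960 with telmisartan, 0.113 with candesartan and 0.136 with HFD against chow. The second was at −0.68 with telmisartan, −0.75 with candesartan and −0.63 with HFD against chow (adjusted p 0.0880, 0.0995 and 0.115).

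With 2 mice a group, the Dbp calls rest on single arrays. In HFD against chow the adjusted p was 0.0717 when chow array 1 was left out and 0.0965 when chow array 2 was. It was 0.245 and 0.106 when HFD array 1 or 2 was left out, and 0.0661 and 0.0654 without either candesartan array, which enter the shared estimate of the spread. Of the 8 arrays, leaving out either telmisartan array kept this call. In telmisartan against chow it was 0.0624 without telmisartan array 2 and 0.0815 without chow array 2. In candesartan against chow it was 0.0648 without chow array 2, and 0.0775 and 0.172 without candesartan array 1 or 2. All 3 calls also ended without the signal filter (adjusted p 0.0700 with telmisartan, 0.0769 with candesartan and 0.0972 with HFD). The telmisartan call ended when only the 2 groups compared were fitted (0.101), and the HFD call without an intensity trend in the variances (0.0650). The estimate stayed below 0 in all of these fits.

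**Figure D1:**
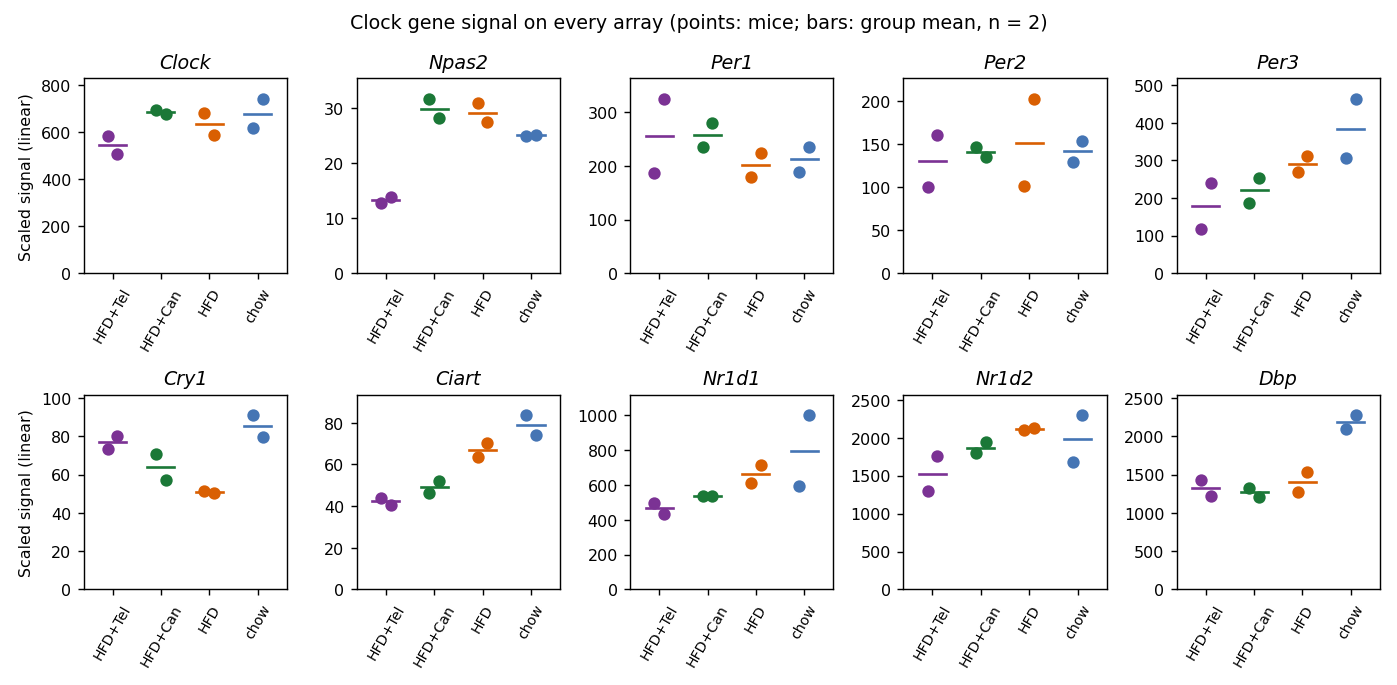
Scaled signal (linear, vertical axis from 0 in each panel) of the brightest probe set of each of the 10 clock genes, for the telmisartan, candesartan, HFD and chow groups from left to right. Points are mice and bars are group means (n = 2); Dbp is lower on all 6 high-fat arrays than on both chow arrays, and Npas2, which is under the signal filter, is lowest on both telmisartan arrays.

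Per3, a period gene known more for its large daily swing than for driving the loop, had 6 probe sets, of which 4 were past the filter and none gave a call. The brightest, 1458176_at, represents the gene in the fit over all genes and had a signal of 117 and 239.8 on the telmisartan arrays, 187 and 254 on the candesartan arrays, 269 and 312 on the HFD arrays and 306 and 463 on the chow arrays. Its telmisartan and candesartan arrays lay below both chow arrays, but HFD array 2 lay above chow array 1, and the arrays within a group differed by up to 2.05-fold. On this probe set the log2 change against chow was −1.17 (95% CI −1.94 to −0.39, adjusted p 0.0711) with telmisartan, −0.79 (95% CI −1.57 to −0.014, adjusted p 0.227) with candesartan and −0.38 (95% CI −1.15 to 0.40, adjusted p 0.545) with HFD. The telmisartan change against chow was −1.68 without telmisartan array 2, the higher of that pair, and −0.65 without telmisartan array 1. With median centring, Per3 passed in telmisartan against chow at an adjusted p of 0.0419.

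The other bright probe sets of Per3 separated the diets more cleanly. Probe set 1421087_at had a signal of 130.0 and 139 on the telmisartan arrays, 133 and 123 on the candesartan arrays, 142 and 145 on the HFD arrays and 204 and 278 on the chow arrays. For 1441445_at it was 57.7 and 87.5 on the telmisartan arrays, 86.1 and 96.8 on the candesartan arrays, 118 and 113 on the HFD arrays and 178 and 188 on the chow arrays, and for 1442243_at 36.6 and 109 on the telmisartan arrays, 78.5 and 120.1 on the candesartan arrays, 93.2 and 99.3 on the HFD arrays and 141 and 181 on the chow arrays. On each of these 3 probe sets all 6 high-fat arrays lay below both chow arrays, so the probe sets of Per3 disagree about the overlap of HFD with chow but not about the sign. In a fit of all 45037 probe sets that are not array controls, added after the data were seen, the log2 change in HFD against chow was −0.73 for 1421087_at (adjusted p 0.164), −0.67 for 1441445_at (0.282) and −0.73 for 1442243_at (0.649). In the same fit the telmisartan change against chow was −0.82, −1.37 and −1.34 (adjusted p 0.113, 0.0799 and 0.351). With the mean over the probe sets of each gene in place of the brightest, Per3 passed in telmisartan against chow (−1.17, adjusted p 0.0398).

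**Figure D2:**
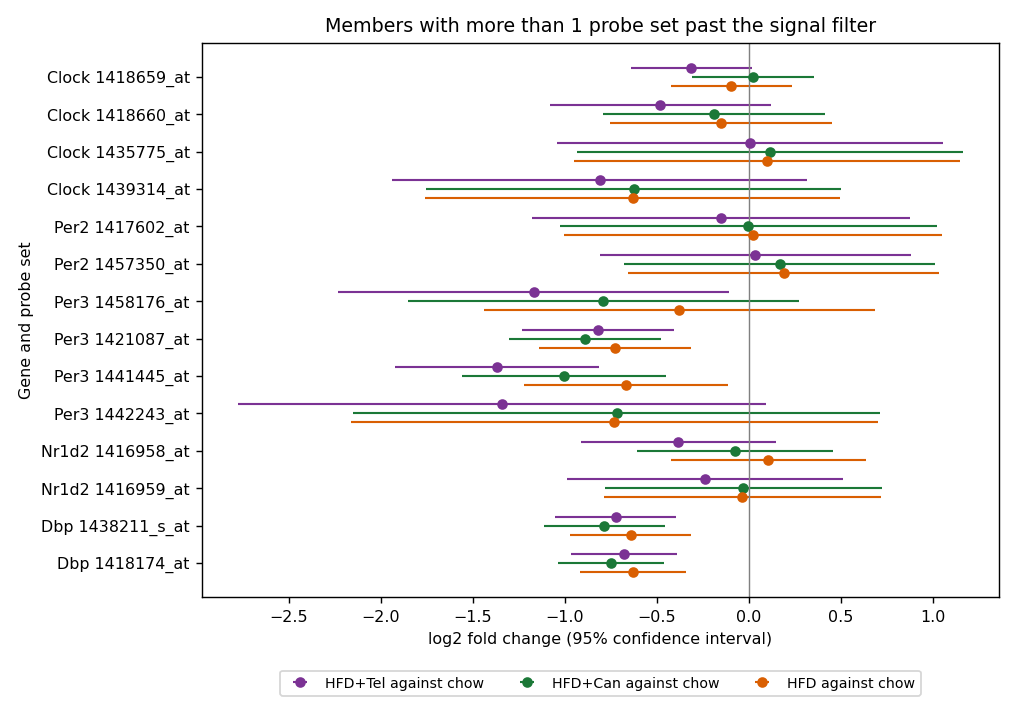
Log2 fold change against chow with its 95% confidence interval (horizontal axis) for each probe set past the signal filter of the 5 clock genes that have more than 1, from the fit of all probe sets. Telmisartan, candesartan and HFD run from top to bottom within each probe set; both Dbp and all 4 Per3 probe sets lie below 0 in all 3 comparisons.

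Ciart, whose product CHRONO represses the Clock and BMAL1 pair and whose promoter held the 3 E-boxes shown above, had a low signal that was lowest with the drugs. It was 43.9 and 40.7 on the telmisartan arrays, 46.4 and 52.2 on the candesartan arrays, 63.4 and 70.1 on the HFD arrays and 83.5 and 74.1 on the chow arrays. The 4 groups did not overlap each other, and they stood in the order telmisartan, candesartan, HFD and chow from low to high. Neighbours in that order did not differ past the test: the log2 change was −0.22 (95% CI −0.80 to 0.37, adjusted p 0.948) for telmisartan against candesartan, −0.44 (95% CI −1.02 to 0.15, adjusted p 0.999991) for candesartan against HFD and −0.24 (95% CI −0.82 to 0.35, adjusted p 0.619) for HFD against chow. Against chow, Ciart was −0.90 (95% CI −1.48 to −0.31, adjusted p 0.0671) with telmisartan and −0.68 (95% CI −1.26 to −0.091, adjusted p 0.170) with candesartan, both short of the threshold. Both passed when the variances were moderated without an intensity trend (adjusted p 0.0190 and 0.0472). For each, that was the only 1 of 19 alternative settings that gave a call. Probe sets of about the same brightness as that of Ciart also read lower with the drugs. Their median log2 change was −0.26 for telmisartan and −0.12 for candesartan against HFD, and −0.14 for telmisartan against candesartan. It was 0.077 for HFD against chow. The part of this shift in the order of the Ciart groups was not tested.

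Cry1, a cryptochrome and the strongest repressor of the loop, showed another pattern. Its signal was 73.5 and 80.0 on the telmisartan arrays, 70.7 and 57.1 on the candesartan arrays, 51.4 and 50.3 on the HFD arrays and 90.9 and 79.7 on the chow arrays. HFD arrays were the lowest, below both chow arrays and below all 4 drug arrays. Telmisartan array 2 just reached the chow range, and telmisartan array 1 lay below both chow arrays. The log2 change in HFD against chow was −0.74 (95% CI −1.30 to −0.19, adjusted p 0.104). It passed without an intensity trend (adjusted p 0.0418), the only 1 of 19 alternative settings that gave a call. Against HFD, Cry1 was 0.59 (95% CI 0.037 to 1.15, adjusted p 0.766) with telmisartan and 0.32 (95% CI −0.23 to 0.88, adjusted p 0.999991) with candesartan. Cry1 has 1 probe set, in the dimmest of 5 equal classes of the genes tested. Among all probe sets, those of about its brightness had a median log2 change of −0.26 with telmisartan and −0.12 with candesartan against HFD. The medians of its class of genes tested were −0.11 and −0.046. All of these medians were opposite in sign to Cry1.

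Per1 and Per2, the period genes that the loop and outside signals such as glucocorticoids both act on, were not called in any of the 6 comparisons. Per1 had a signal of 187 and 324 on the telmisartan arrays, 235 and 280.1 on the candesartan arrays, 179 and 223 on the HFD arrays and 189 and 236 on the chow arrays. The 2 telmisartan mice differed by 1.74-fold, and all other arrays but HFD array 1 lay within their range. Per2 had a signal of 100.4 and 161 on the telmisartan arrays, 147 and 135 on the candesartan arrays, 102 and 202 on the HFD arrays and 129 and 154 on the chow arrays, and the 2 HFD mice, 1.99-fold apart, spanned all other arrays but telmisartan array 1. The log2 change in HFD against chow was −0.079 (95% CI −0.69 to 0.53, adjusted p 0.898) for Per1 and 0.023 (95% CI −0.75 to 0.80, adjusted p 0.978) for Per2. These intervals leave room for changes of about the size seen for Dbp, and do not show that the genes are alike in the groups.

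The nuclear receptors Nr1d1 (REV-ERBα) and Nr1d2 (REV-ERBβ), which repress Arntl, were lower with telmisartan in their estimates but not past the test. Nr1d1 had a signal of 497 and 433 on the telmisartan arrays, 534 and 537 on the candesartan arrays, 609 and 713 on the HFD arrays and 591 and 998 on the chow arrays. All 4 drug arrays lay below all HFD and chow arrays, and the 2 chow mice differed by 1.69-fold. Against chow the log2 change was −0.73 (95% CI −1.25 to −0.20, adjusted p 0.0918) with telmisartan, −0.52 (95% CI −1.05 to 0.0050, adjusted p 0.240) with candesartan and −0.22 (95% CI −0.75 to 0.31, adjusted p 0.611) with HFD. These values rest on the chow arrays. Without chow array 1, Nr1d1 passed in both drug groups, at −1.10 with telmisartan (adjusted p 0.0163) and −0.90 with candesartan (0.0348). Without chow array 2 the HFD estimate turned to 0.16.

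Nr1d2 had a signal of 1292 and 1760.2 on the telmisartan arrays, 1793 and 1938 on the candesartan arrays, 2104 and 2129.6 on the HFD arrays and 1685 and 2293 on the chow arrays. The telmisartan arrays lay below both HFD arrays and overlapped the chow arrays. Its log2 change was −0.49 (95% CI −0.92 to −0.062, adjusted p 0.766) for telmisartan against HFD and 0.11 (95% CI −0.32 to 0.53, adjusted p 0.779) for HFD against chow. A second probe set, 1416959_at, had 77.5 and 116 on the telmisartan arrays, 106 and 113 on the candesartan arrays, 109 and 109 on the HFD arrays and 88.8 and 140.5 on the chow arrays, and there the telmisartan arrays spanned both HFD arrays.

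Of the activators, Clock had a signal of 583 and 508 on the telmisartan arrays, 695 and 678 on the candesartan arrays, 681 and 588 on the HFD arrays and 618 and 739 on the chow arrays. The telmisartan arrays were the lowest, and the other 3 groups overlapped. The log2 change was −0.31 (95% CI −0.66 to 0.035, adjusted p 0.247) for telmisartan against chow and −0.095 (95% CI −0.44 to 0.25, adjusted p 0.753) for HFD against chow. Its 3 other probe sets past the filter did not repeat one order: on 1435775_at the telmisartan arrays held both the lowest and the highest value (125 and 256). On 1439314_at all 6 high-fat arrays (27.9 to 61.6) lay below both chow arrays (82.1 and 64.4). There the log2 change in HFD against chow was −0.63 in the fit of all probe sets (adjusted p 0.616).

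Npas2, which can stand in for Clock as the partner of BMAL1, was dim and is reported outside the fit of 11232 genes. Its brighter probe set, 1421037_at, had a signal of 12.9 and 13.8 on the telmisartan arrays, 31.7 and 28.2 on the candesartan arrays, 30.9 and 27.4 on the HFD arrays and 25.1 and 25.2 on the chow arrays. Both telmisartan arrays were under the other 6, at about the same level in both mice. The dimmer probe set, 1421036_at, was under the floor of 6.69 on 5 of the 8 arrays, among them all 4 drug arrays and chow array 1. In the fit without a filter, over 18193 genes, the log2 change of Npas2 was −1.13 for telmisartan against HFD (95% CI −1.54 to −0.71, adjusted p 0.297). Against candesartan it was −1.16 (95% CI −1.58 to −0.75, adjusted p 0.350), and neither passed. Against chow it was −0.91 with telmisartan (adjusted p 0.0709), 0.25 with candesartan (0.538) and 0.21 with HFD (0.556). Dim probe sets as a whole read lower on the telmisartan arrays: among those of about the same brightness as 1421037_at, the median log2 difference from HFD was −0.27. The part of this shift in the Npas2 value was not tested.

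Over the members, the test called 1 of the 9 genes measured in each comparison with chow, Dbp each time and lower. Of all 11232 genes, 8.44% were called in telmisartan against chow, 6.59% in candesartan against chow and 8.09% in HFD against chow, so 1 of 9 is near the background share and is no result about the group of genes. The estimates were below 0 for 8 of 9 members with telmisartan, 7 of 9 with candesartan and 7 of 9 with HFD. Their medians were −0.38, −0.42 and −0.22 on the log2 scale, beside −0.030, −0.018 and −0.013 over all genes tested. These comparisons share the same 2 chow arrays. On the probe set used for each gene, 2 of 9 members (Dbp and Ciart) had all 6 high-fat arrays below both chow arrays, as had 15.1% of all genes tested. With the arrays centred on their medians instead, the median of all genes tested was 0.14 with telmisartan, 0.034 with candesartan and −0.11 with HFD against chow. Dbp was then at −0.55 with telmisartan (adjusted p 0.244), −0.73 with candesartan (0.142) and −0.74 with HFD (0.129). It was no longer called, although its estimates stayed below these medians and, in HFD, further from 0 than with the trimmed mean.

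**Figure D3:**
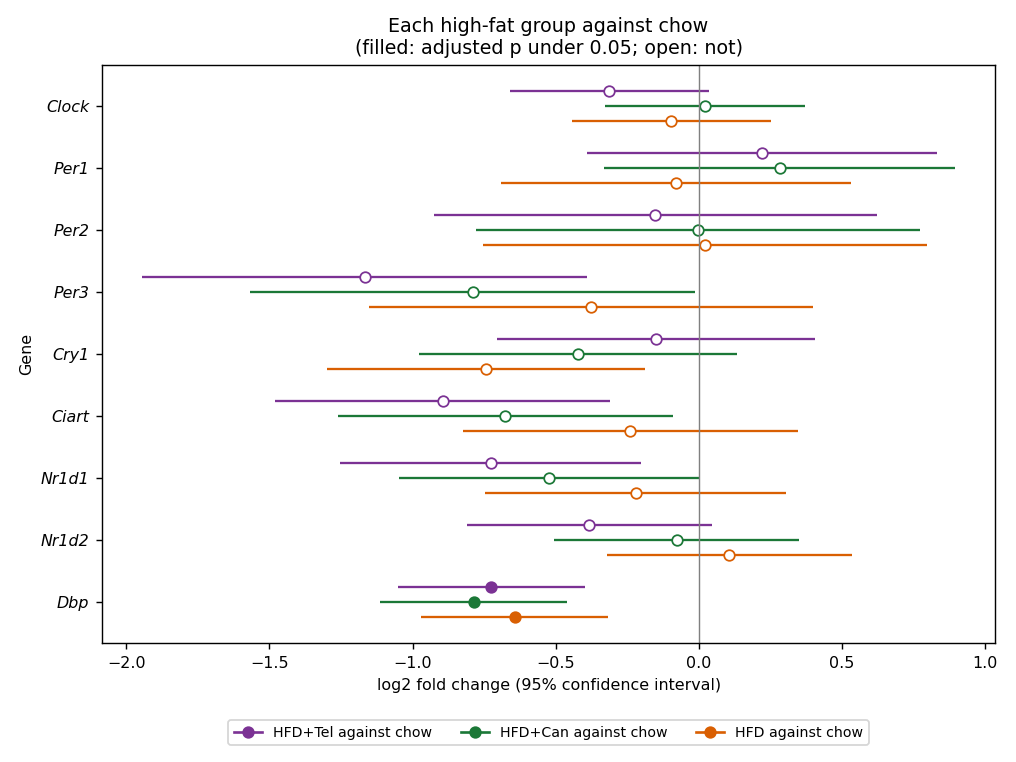
Log2 fold change against chow with its 95% confidence interval (horizontal axis) for the 9 clock genes tested, with telmisartan, candesartan and HFD from top to bottom within each gene. Filled points passed the test (Dbp in all 3 comparisons), and open points did not.

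The drugs were compared at the same dose and time. Telmisartan and candesartan both block the angiotensin II type 1 receptor and share a benzimidazole joined to a biphenyl; telmisartan carries a second benzimidazole and a carboxylic acid on the biphenyl, where candesartan carries a tetrazole. Against HFD, limma called 0 members with either drug, and 0% of all genes. At an unadjusted p under 0.05 there were 4 of 9 members with telmisartan (Per3, Cry1, Ciart and Nr1d2), against 6.20% of all genes, and 0 with candesartan, against 1.25%. The telmisartan count depended on the scaling. With quantile normalization Cry1 and Nr1d2 stayed under 0.05, and Per3 and Ciart did not. With median centring only Cry1 and Per1 were under 0.05, and Ciart was at −0.38 and Nr1d2 at −0.22. As reported, the 4 members did not move one way, since Cry1 was higher (0.59) and Per3, Ciart and Nr1d2 were lower (−0.79, −0.66 and −0.49), and each had an adjusted p of 0.766. With candesartan the same 4 genes were at 0.32, −0.41, −0.44 and −0.18 in that order, none past the test, from the same 2 HFD arrays. The Per3 values are those of its brightest probe set. For telmisartan against HFD that probe set was at −0.27 without telmisartan array 1 and −1.31 without telmisartan array 2. In the fit of all probe sets, 1421087_at of Per3 was at −0.093 (95% CI −0.51 to 0.32) in this comparison. There 1441445_at was at −0.70 and 1442243_at at −0.61. Dbp was −0.082 (95% CI −0.41 to 0.24, adjusted p 0.897) with telmisartan and −0.14 with candesartan (95% CI −0.47 to 0.18).

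Telmisartan against candesartan tests whether the drug effects differ, for 9 member genes with p adjusted over all genes. It called 0 members and 0% of all genes, and 0 members had an unadjusted p under 0.05, against 4.90% of all genes. The difference nearest the threshold was that of Clock, −0.33 (95% CI −0.68 to 0.013, adjusted p 0.924), where both telmisartan arrays lay below both candesartan arrays. For Dbp it was 0.062 (95% CI −0.26 to 0.39, adjusted p 0.964) and for Per3 −0.38 (95% CI −1.15 to 0.40, adjusted p 0.928). The interval for Dbp excludes a drug difference as large as its change against chow, while those of the other 8 members reach past the 0.64 by which Dbp fell in HFD, so that for them a difference of that size cannot be left out. The intervals are −0.67 to 0.55 for Per1, −0.92 to 0.63 for Per2, −0.28 to 0.83 for Cry1, −0.73 to 0.32 for Nr1d1 and −0.73 to 0.12 for Nr1d2.

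**Figure D4:**
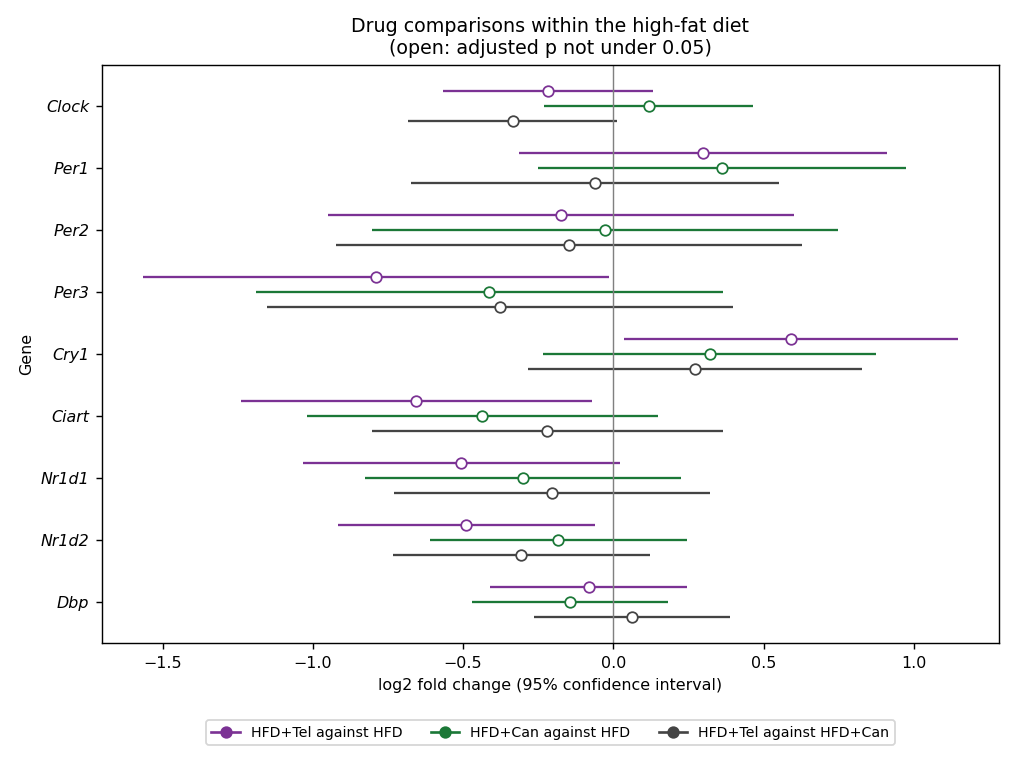
Log2 fold change with its 95% confidence interval (horizontal axis) for the 9 clock genes tested, for telmisartan against HFD, candesartan against HFD and telmisartan against candesartan from top to bottom within each gene. No point passed the test, and the interval of Cry1 for telmisartan against HFD lies above 0 while those of Per3, Ciart and Nr1d2 lie below it.

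The rest of the clock machinery was taken as a list of 15 genes, of which 9 were bright enough to be tested. In telmisartan against chow 1 fell and 0 rose, and in the other 5 comparisons none was called. Beside the 8.44% of all genes called in that comparison, 1 of 9 is near the background. The gene that fell was Bhlhe40 (DEC1), an E-box binding repressor, at 559.5 and 478 on the telmisartan arrays, 798 and 615 on the candesartan arrays, 554 and 885 on the HFD arrays and 1415 and 877 on the chow arrays. It fell by 1.11 on the log2 scale (95% CI −1.75 to −0.46, adjusted p 0.0476) with telmisartan. Leaving out any array other than chow array 2 ended this call (adjusted p 0.0512 to 0.166), and the estimate was −0.76 without chow array 1. The call also ended with median centring (adjusted p 0.126), without a filter (0.182), without an intensity trend (0.0766), with only the 2 groups fitted (0.0907), with the mean over probe sets (0.0524) and in the fit of all probe sets (0.231). The median of the 9 genes was −0.091 with telmisartan, −0.075 with candesartan and 0.017 with HFD against chow.

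Arntl, which encodes BMAL1 and is known to peak when Dbp is low, had a signal of 93.8 and 87.0 on the telmisartan arrays, 126 and 155 on the candesartan arrays, 125 and 124 on the HFD arrays and 108 and 84.2 on the chow arrays. Both candesartan arrays and both HFD arrays lay above both chow arrays, and the telmisartan arrays lay within the chow range. Its log2 change against chow was 0.55 (95% CI 0.070 to 1.04, adjusted p 0.174) with candesartan, 0.39 (95% CI −0.095 to 0.87, adjusted p 0.306) with HFD and −0.076 (95% CI −0.56 to 0.41, adjusted p 0.863) with telmisartan. Cry2, the second cryptochrome, was below both chow arrays on all 6 high-fat arrays, as were 15.1% of all genes tested. Its high-fat arrays reached at most 341 against at least 380.0 in chow, and it did not pass (−0.41 in HFD, adjusted p 0.231).

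A second list held 15 genes that cycle in several mouse tissues or bind the same sites as DBP, of which 13 were tested. Against chow, 1 fell with telmisartan, 1 fell with candesartan and 1 rose with HFD; no gene was called in the drug comparisons. Each count is 1 of 13, near the shares over all genes of 8.44% with telmisartan, 6.59% with candesartan and 8.09% with HFD. The gene that fell with both drugs was Tef, a D-box factor of the same family as Dbp. Its signal was 694 and 828 on the telmisartan arrays, 784 and 745 on the candesartan arrays, 769 and 877 on the HFD arrays and 1158 and 1204 on the chow arrays, so that, as for Dbp, all 6 high-fat arrays lay below both chow arrays. Tef fell by 0.64 on the log2 scale (95% CI −0.96 to −0.32, adjusted p 0.0280) with telmisartan and fell by 0.63 on the log2 scale (95% CI −0.95 to −0.31, adjusted p 0.0348) with candesartan, and it was −0.52 (95% CI −0.85 to −0.20, adjusted p 0.0567) in HFD against chow. Its candesartan call ended without either chow, HFD or candesartan array (adjusted p 0.0746 to 0.257), and its telmisartan call ended without any array other than telmisartan array 2 (0.0523 to 0.0999). Both Tef calls ended with median centring (adjusted p 0.231 with telmisartan and 0.171 with candesartan), without a filter (0.0670 and 0.0847), without an intensity trend (0.0507 and 0.0610) and in the fit of all probe sets (0.0926 and 0.122). The telmisartan call also ended with only the 2 groups fitted (0.156), and the estimates stayed below 0 throughout.

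Hlf, the third factor of that family, had 70.6 and 39.6 on the telmisartan arrays, 69.6 and 67.9 on the candesartan arrays, 79.1 and 107 on the HFD arrays and 98.4 and 144 on the chow arrays. Its log2 change against chow was −1.17 (95% CI −1.94 to −0.41, adjusted p 0.0672) with telmisartan and −0.38 (95% CI −1.14 to 0.39, adjusted p 0.541) with HFD. The gene that rose was Dtx4, a ubiquitin ligase gene, with 800.1 and 836 on the telmisartan arrays, 775 and 1001 on the candesartan arrays, 865 and 942 on the HFD arrays and 609 and 543 on the chow arrays. All 6 high-fat arrays lay above both chow arrays. Its log2 change against chow was 0.65 (95% CI 0.29 to 1.01, adjusted p 0.0408) with HFD, 0.51 (95% CI 0.15 to 0.86, adjusted p 0.0841) with telmisartan and 0.61 (95% CI 0.26 to 0.97, adjusted p 0.0541) with candesartan. The HFD call ended without either HFD, chow or candesartan array (adjusted p 0.0512 to 0.264). It also ended with median centring (0.216), without a filter (0.109), without an intensity trend (0.0695) and in the fit of all probe sets (0.156). The list's median log2 change was −0.16 with telmisartan, −0.10 with candesartan and −0.24 with HFD against chow, beside −0.030, −0.018 and −0.013 over all genes tested.

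**Figure D5:**
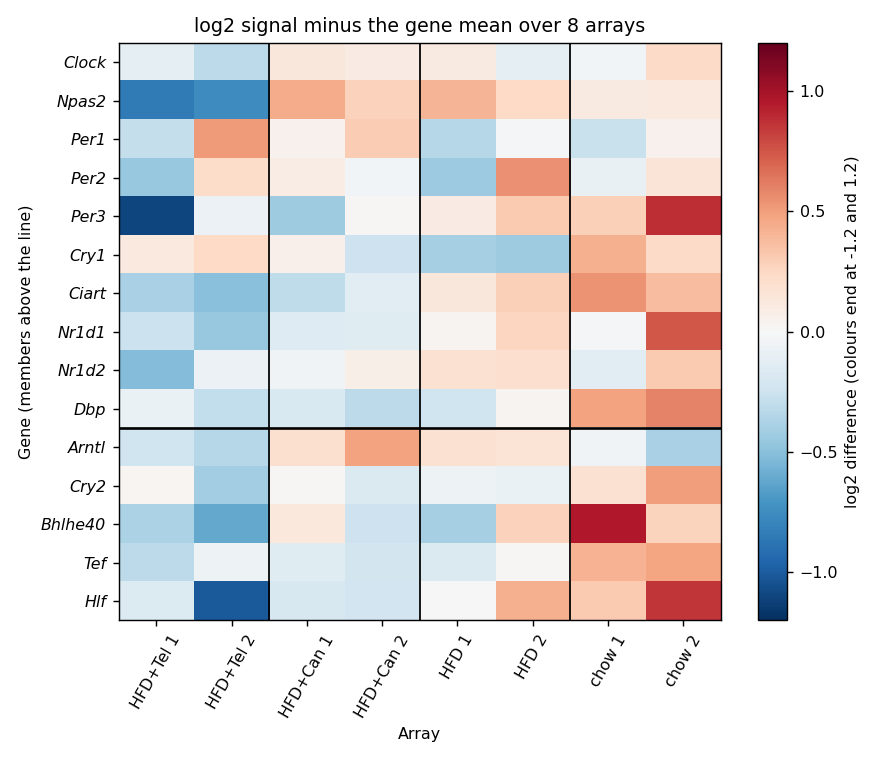
Log2 signal of each gene minus its mean over the 8 arrays (colour), for the 10 clock genes above the line and for Arntl, Cry2, Bhlhe40, Tef and Hlf below it, with the telmisartan, candesartan, HFD and chow arrays from left to right. Dbp and Tef are above their means on both chow arrays, and Npas2 is below its mean on both telmisartan arrays.

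Among the members, levels across the 8 arrays were most alike for Per3 and Nr1d2 (Pearson r 0.865 on the log2 scale), followed by Ciart and Dbp (0.767) and by Ciart and Nr1d1 (0.750), while Per1 and Ciart were opposed (−0.472), as were Cry1 and Nr1d2 (−0.419). These are descriptions over 8 arrays in 4 groups that also differ in diet, with no test. The other genes tested were ranked by likeness, leaving out those with only a clone or accession-like name. Those whose levels were most like those of Dbp were Trip6 (r 0.992), Ptges (0.990), C1qtnf9 (0.988) and Prkaa2 (0.987). Those most like Npas2 were Phf14 (0.958), Nufip2 (0.940), Plekha5 (0.936) and Micu3 (0.934). Genes that separate the same arrays score high on such a measure whatever they do.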

How the data were processed

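Total RNA of 8 epididymal fat samples was hybridized to Mouse Genome 430 2.0 arrays, 1 per mouse. The authors ran GeneChip Analysis Suite, per the series design text, and the signal intensity they deposited for each probe set is linear. No source used here says how probes were summarised or scaled. Presence calls were not used. The table held 0 columns of other samples and 0 negative values. The arrays' trimmed means (2% off each end) differed by up to 1.48 times, and were made equal. Signals were raised to at least 6.69, the 20th percentile, before log2 was applied. Probe sets at or above the median of mean log2 signal (22519) were kept, a cut at a signal of about 40.5. The brightest probe set with 1 symbol stood for each gene, which left 11232 genes. Of the 45101 probe sets, 34958 had 1 symbol, 932 had several, and 64 were array controls. All 23 member probe sets kept their symbol in RefSeq's gene table.

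limma 3.58.1 (R 4.3.3) fitted 4 group means with 4 residual degrees of freedom between arrays, and variances with an intensity trend. The test is two-sided, with Benjamini-Hochberg adjustment over all genes, called under 0.05, and intervals are 95%. The fit was also run on simulated data with independent noise for each gene and no shift across an array. That run does not measure its error rate on these arrays. An exact permutation test of 2 against 2 arrays cannot go below a p of 33.3%. The number of arrays limits the precision, and p-values measure the spread between single mice. Groups and replicate numbers came from sample titles; no source pairs mice across groups. The members, gene lists, rule for named genes and tests were chosen with earlier results of these data known. By that rule all members were named, with genes of each list called in any comparison, and Arntl and Tef. The 4 genes most correlated with Dbp and with Npas2 were named too, skipping clone and accession-like names. Cry2 and Hlf were added after their values were seen. Further marker lists (lymphocyte, mast cell and mesothelium) were summed too: lymphocyte sums were 337 and 743 for telmisartan, 717 and 257 for candesartan, 633 and 359 for HFD, and 205 and 286 for chow. Mast cell sums were 397 and 877, 1026 and 1075, 845 and 1487, and 454 and 534 in that order of groups, and mesothelial sums 441 and 1852, 1304 and 2447, 1788 and 2420, and 2574 and 1967. Alternatives changed the scaling, floor, filter, variance moderation, groups fitted, probe sets, pairing and arrays. Figures were drawn with matplotlib 3.10.9.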

Additional observations from a re-analysis of the deposited data

How the results depend on the processing

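With 2 mice a group, no exact test of single values can pass, and calls rest on the variances shared over genes. The number of clock genes called against chow (1 in each comparison as reported) was 0 in all 3 without a signal filter, where more genes are tested. With median centring it was 0 in HFD and in candesartan and 1 in telmisartan, where Per3 was called and Dbp was not. Without an intensity trend it was 2 in telmisartan and in candesartan (Ciart with Dbp), and in HFD Cry1 took the place of Dbp. In telmisartan it was 0 with only the 2 groups compared, 2 with the mean over probe sets and 2 with the replicate number as a block (replicate block; Per3 with Dbp). The cause of these changes was not tested. Leaving out 1 array gave 0 to 1 called in HFD, 0 to 2 in telmisartan and 0 to 2 in candesartan. The replicate block moved no other count of called members; the replicate differences of groups correlated at −0.04 to 0.21, and no source pairs the mice. Without a filter, 4, 6 and 6 of all genes were called in telmisartan against HFD, candesartan against HFD and telmisartan against candesartan, where 0 were called as reported, and no clock gene was among them.

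Signs that turned belong to values that did not pass. Median centring gave Clock 0.054, Per2 0.097 and Dbp 0.19 in telmisartan against HFD, Per2 0.13 and Dbp 0.0080 in candesartan against HFD, Per1 0.058 between the drugs, and against chow Per2 0.021 and Cry1 0.022 with telmisartan, Per2 0.049 with candesartan and Per2 −0.076 in HFD. Quantile normalization gave Per2 −0.026 in HFD against chow, 0.030 in candesartan against HFD and 0.0044 in candesartan against chow, and the mean over probe sets gave Clock −0.17 and Per2 0.083 in candesartan against chow. Leaving out 1 array, the range was −0.22 to 0.034 for Clock, −0.24 to 0.081 for Per1, −0.47 to 0.52 for Per2, −0.60 to 0.16 for Nr1d1 and −0.12 to 0.33 for Nr1d2 in HFD against chow. It was −0.098 to 0.70 for Per1, −0.67 to 0.32 for Per2 and −0.22 to 0.051 for Dbp in telmisartan against HFD, and −0.52 to 0.47 for Per2 in candesartan against HFD. Between the drugs it was −0.46 to 0.34 for Per1, −0.49 to 0.19 for Per2, −0.89 to 0.14 for Per3 and −0.049 to 0.17 for Dbp. Against chow it was −0.18 to 0.62 for Per1 and −0.49 to 0.19 for Per2 with telmisartan, and −0.11 to 0.15 for Clock, −0.13 to 0.12 for Per2 and −0.30 to 0.15 for Nr1d2 with candesartan. Of the counts over all genes, 29 of 114 moved by over 1.5 times: in HFD against chow 909 genes became 575 with median centring, 174 without a filter and 164 to 1624 without 1 array. In telmisartan against chow 948 became 332 without a filter, 198 with only the 2 groups and 533 to 1674 without 1 array, and in candesartan against chow 740 became 164 without a filter and 117 to 1324 without 1 array.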
